A study of Mus musculus with 6 samples.

Results

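The Rhox genes are a family of homeobox genes on the mouse X chromosome, and 7 of them are described here in testis RNA: Rhox1, Rhox5, Rhox8, Rhox10, Rhox11, Rhox12 and Rhox13. They were taken by gene symbol from a table of 45777 genes, and each of the 7 symbols matched 1 row. The table held 6 libraries of total RNA from the testes of WT mice kept for 16 weeks on a liquid diet (LDC), 3 from ethanol-fed and 3 from control-fed mice. The mice were first accustomed to the control form of this diet. No source used here gives the strain or age of the mice or the ethanol content of the diet. The labels do not say whether each library is another animal, and the p-values therefore reflect sample spread that may be technical in part. Testis is a mixed tissue, so that a lower level can mean fewer cells of a type or less RNA per cell, and these cannot be told apart.

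Homeobox genes encode transcription factors that bind DNA through the homeodomain. The Rhox cluster (reproductive homeobox genes on the X chromosome) is active mainly in testis, epididymis, ovary and placenta, and is kept silent by DNA methylation in many other tissues. Rhox5, the founding member, also known as Pem, is made in Sertoli cells, the somatic cells that nurse germ cells in the seminiferous tubule, and its Sertoli promoter needs androgen. Mice without Rhox5 have more germ cell death and fewer, less motile sperm. Rhox8 is likewise a Sertoli cell gene that responds to androgen, Rhox10 acts in the germ line in the establishment of spermatogonial stem cells, and Rhox13 is a germ cell gene.

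In the ethanol-fed testes Rhox8 stood at 2.33 ± 0.53 CPM and in the control-fed testes at 1.29 ± 0.073 CPM (SD, n = 3 each), where CPM is the read count scaled to library size with TMM factors. That is 1.81-fold, a log2 fold change of 0.86 (SE 0.21), and all 3 ethanol libraries lay above all 3 controls. Rhox10, at a much lower level, was also separated between the diets, at 0.409 ± 0.080 CPM with ethanol and 0.208 ± 0.060 CPM in controls, but it passed the filter on low values through its ethanol libraries. Rhox5, Rhox11 and Rhox13 overlapped between the diets, with log2 fold changes of 0.12, -0.11 and -0.16. Groups without overlap are common in this table: the ethanol libraries lay above all controls for 9.76% of tested genes and below them for 9.01%, or 18.8% in either direction. None of the 5 genes that could be tested passed the test over all genes. The edgeR quasi-likelihood test gave Rhox8 an adjusted p of 0.153 and Rhox10 an adjusted p of 0.330.

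**Figure D1:**
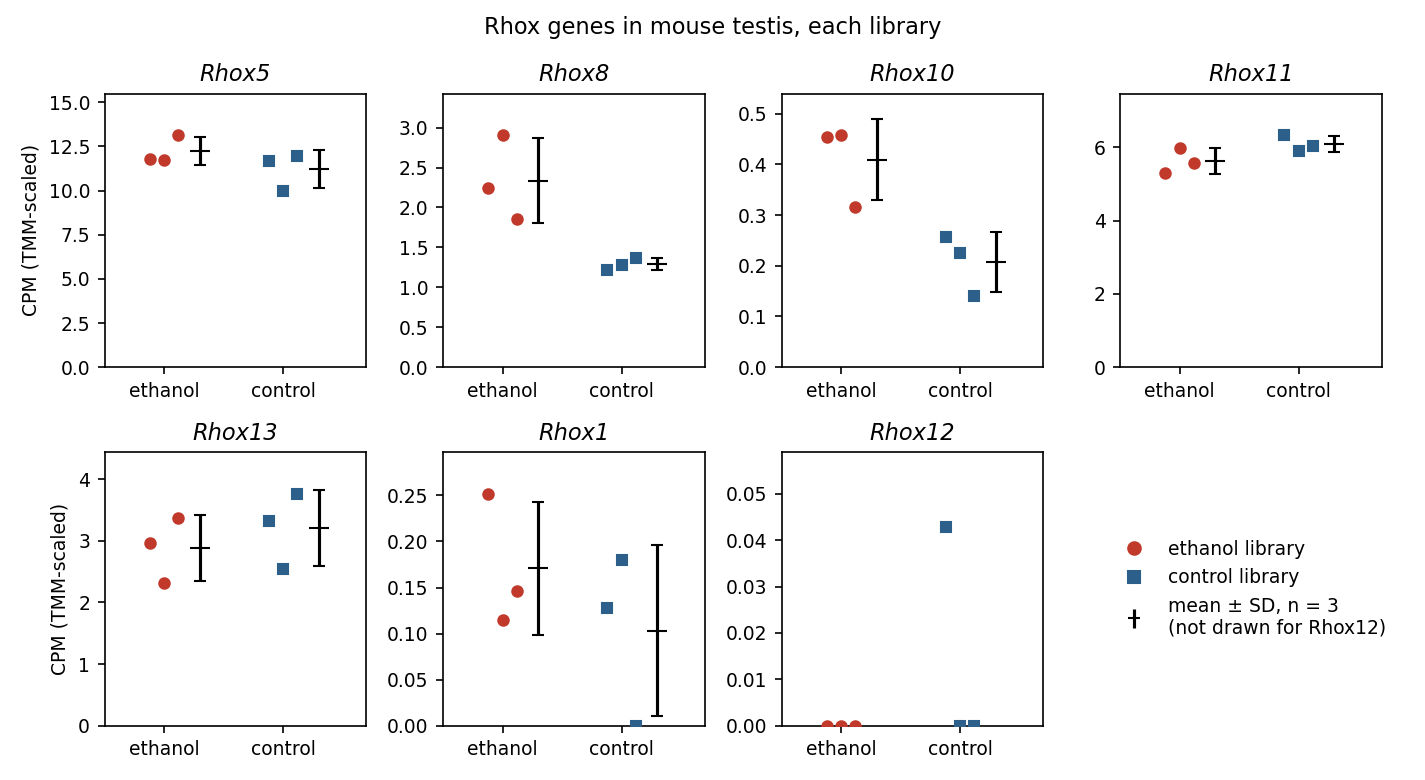
TMM-scaled CPM (vertical axes, each starting at 0) of the 7 Rhox genes in the 3 ethanol and 3 control libraries, with the mean ± SD of each diet beside the points. Ethanol and control libraries do not overlap for Rhox8 and Rhox10 and overlap for the other 5 genes; Rhox12 had counts in 1 control library alone.

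That test called 0 of 25073 genes higher or lower at an adjusted p of 0.05, which is 0.0% of them. At an unadjusted p under 0.05 it found 3343 genes, or 13.3%, of which 7.45% of all tested were higher with ethanol and 5.89% lower. Rhox8 was among those higher at that unadjusted level, as was Rhox10 (edgeR unadjusted p = 0.0338), which passed the filter through its ethanol libraries. On the same counts DESeq2 called 330 genes at an adjusted p under 0.05, or 1.32%, none of them among the Rhox genes described. Library totals ranged from 38935654 to 47420249 counts. Markers of testis cells were present in every library, with those of spermatocytes summing to 4789 to 5239 CPM with ethanol and 5045 to 5390 CPM in controls, and those of round spermatids summing to 1883 to 1945 CPM with ethanol and 1928 to 2139 CPM in controls.

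The family lies in a cluster on chromosome X. On the RefSeq annotation of GRCm38.p6, the assembly of mm10, Rhox1 (Gene ID 385343) runs from 37213804 to 37222258, Rhox5 (18617) from 37754608 to 37808878 and Rhox8 (434768) from 37874780 to 37890766. Rhox10 (434769) runs from 38066475 to 38071688, Rhox11 (194738) from 38076598 to 38085139, Rhox12 (382282) from 38104062 to 38110907 and Rhox13 (73614) from 38120840 to 38129966. Rhox5, Rhox10 and Rhox13 are on the plus strand and Rhox1, Rhox8, Rhox11 and Rhox12 on the minus strand. The stretch between Rhox1 and Rhox5 is filled with tandem copies of Rhox2, Rhox3 and Rhox4. The RefSeq span of Rhox8 overlaps the pseudogene Rhox7b, which had at most 6 counts in a library, and that of Rhox13 overlaps the long noncoding RNA Gm39506, which had at most 5. Rhox8 and Rhox7b lie on the same strand, and how reads within either overlap were assigned is not given.

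**Figure D2:**
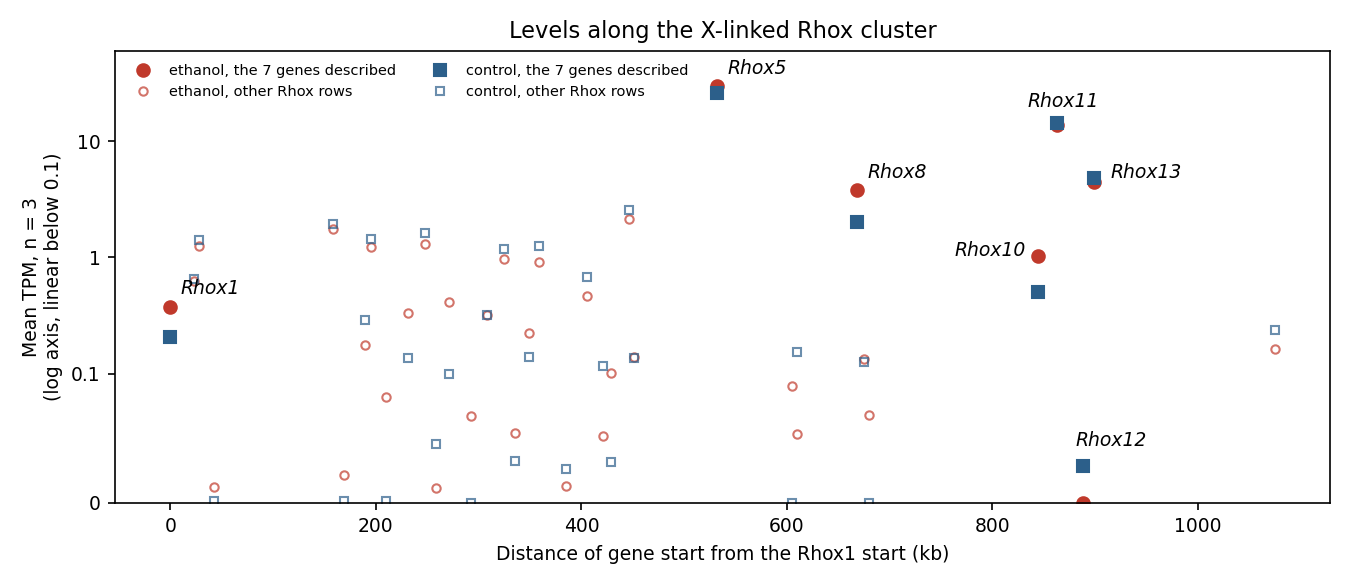
Mean TPM over 3 libraries (vertical axis, logarithmic and linear below 0.1) against the distance of each gene's RefSeq start from that of Rhox1 in kb, for ethanol (circles) and control (squares). Filled symbols are the 7 genes described and open symbols the other Rhox rows of the table; Rhox5 stands highest, at 29.6 TPM with ethanol and 26.1 TPM in controls.

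The sequences just before the gene starts are shown because androgen control is the best known input to Rhox5 and Rhox8, and because DNA methylation at CG sites is the best known means of silencing the cluster. RefSeq's promoter table for GRCm38.p6 held 6 of the 7 genes, all but Rhox8. For the 4 of these genes that could be tested, the 250 bases before the RefSeq start are printed 5′ to 3′ on the strand of the gene, with capitals at each AGAACA or TGTTCT, the 2 strands of a hexamer of steroid hormone response elements. The windows are chrX:37754358-37754607 for Rhox5, chrX:38066225-38066474 for Rhox10, chrX:38085140-38085389 for Rhox11 and chrX:38120590-38120839 for Rhox13.
Rhox5: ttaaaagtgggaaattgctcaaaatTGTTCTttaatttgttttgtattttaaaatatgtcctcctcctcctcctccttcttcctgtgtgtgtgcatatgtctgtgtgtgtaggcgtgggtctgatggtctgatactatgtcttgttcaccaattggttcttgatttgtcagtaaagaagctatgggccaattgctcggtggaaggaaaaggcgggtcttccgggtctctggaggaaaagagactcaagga
Rhox10: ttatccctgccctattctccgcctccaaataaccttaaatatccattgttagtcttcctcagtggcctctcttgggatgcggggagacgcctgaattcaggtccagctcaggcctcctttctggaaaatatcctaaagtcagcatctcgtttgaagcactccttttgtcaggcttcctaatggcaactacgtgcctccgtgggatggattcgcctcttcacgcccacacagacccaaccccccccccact
Rhox11: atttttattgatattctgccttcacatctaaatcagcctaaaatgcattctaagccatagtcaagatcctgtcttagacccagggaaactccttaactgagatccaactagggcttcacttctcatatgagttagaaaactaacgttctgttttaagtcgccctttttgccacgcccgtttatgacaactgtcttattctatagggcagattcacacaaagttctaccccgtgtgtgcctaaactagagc
Rhox13: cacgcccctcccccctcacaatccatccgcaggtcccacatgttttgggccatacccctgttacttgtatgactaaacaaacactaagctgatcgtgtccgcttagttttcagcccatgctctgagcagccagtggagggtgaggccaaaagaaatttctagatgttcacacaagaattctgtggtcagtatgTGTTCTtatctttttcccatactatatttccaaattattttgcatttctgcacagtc
The hexamer occurred on either strand in 3 of the 6 windows, those of Rhox1, Rhox5 and Rhox13, and in 16.1% of all 32851 windows of this length in the table. The spaced pair, AGAACA then any 3 bases then TGTTCT, which reads the same on both strands and holds both hexamers, occurred in 0 of the 6 windows and in 0.00913% of all windows. CG pairs numbered 4 for Rhox5, 8 for Rhox10, 5 for Rhox11, 4 for Rhox13, 2 for Rhox12 and 0 for Rhox1, where the median window held 6. A match is only a match of letters. The RefSeq start of Rhox5 lies 50234 bases before the GENCODE M21 start of the gene, and that of Rhox13 379 bases before, so these windows need not be where transcription starts in testis. For Rhox10, Rhox11, Rhox12 and Rhox1 the starts of both annotations lay within 2 bases of each other.

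Levels between genes were compared as TPM, which the authors scaled per transcript length. The order over all 6 libraries was Rhox5, Rhox11, Rhox13, Rhox8, Rhox10, Rhox1 and Rhox12. Rhox5 averaged 27.9 ± 2.14 TPM and Rhox11 13.9 ± 0.78 TPM (SD, n = 6), and they did not overlap in any library. Rhox13, at 4.62 ± 0.66 TPM, lay below Rhox11 in every library. It overlapped with Rhox8, at 2.90 ± 1.16 TPM, within the ethanol libraries, where Rhox13 ranged from 3.59 to 4.96 TPM and Rhox8 from 2.83 to 4.74 TPM. Within the control libraries they were apart, with Rhox13 at 4.06 to 5.37 TPM and Rhox8 at 1.86 to 2.13 TPM. Rhox10 averaged 0.769 ± 0.357 TPM and Rhox1 0.291 ± 0.199 TPM, and their values overlapped over the 6 libraries.

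Rhox5 and Rhox8 are the family's best known Sertoli cell genes. Read counts of Rhox8 were 89, 127 and 76 in ethanol libraries 1, 2 and 3, against 57, 57 and 58 in control libraries 1, 2 and 3. As CPM these are 2.24, 2.90 and 1.85 with ethanol and 1.22, 1.28 and 1.36 in controls. The controls were nearly equal, and the ethanol libraries differed more among themselves, with library 2 the highest. In TPM the values were 3.81, 4.74 and 2.83 with ethanol and 1.86, 2.13 and 2.01 in controls. Counting error alone would give the log2 fold change a standard error of 0.139, against 0.21 in the edgeR fit. By p, Rhox8 was number 233 of the 25073 genes tested, and 1.23% of tested genes had a log2 fold change at least as large. Without ethanol library 2 its log2 fold change was 0.67 (edgeR adjusted p = 0.399), and without ethanol library 3 it was 0.99 (adjusted p = 0.152).

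Rhox5 had 469, 513 and 539 counts with ethanol and 547, 443 and 509 in controls, or 11.8, 11.7 and 13.1 CPM with ethanol and 11.7, 9.99 and 12 CPM in controls. Ethanol library 3 was the highest and control library 2 the lowest, and the rest lay close together. Its log2 fold change was 0.12 (SE 0.11, edgeR adjusted p = 0.667). On the TPM scale the diets did not overlap, with 30.2, 28.5 and 30.1 TPM with ethanol and 27.0, 24.8 and 26.6 TPM in controls. That scale separates 11.7% of tested genes upwards and 4.41% downwards, and on log2(TPM + 1) the median of all genes lay at 0.044, against 0.0065 on TMM-scaled counts. There limma gave Rhox5 a difference of 0.18 with an adjusted p of 0.467.

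The ratio of Rhox5 to Rhox8, both known as androgen-dependent Sertoli genes, did not overlap between the diets. The CPM of Rhox5 was 5.27, 4.04 and 7.09 times that of Rhox8 with ethanol and 9.60, 7.77 and 8.78 times in controls. The difference in the log2 ratio was -0.70 (exact two-sided permutation test, p = 0.1, the smallest p that 3 against 3 allows). Ratios were formed for all 10 pairs of the 5 tested genes, and with Benjamini-Hochberg adjustment over these pairs the p was 0.167. The ratio of Rhox8 to Rhox11 was likewise apart, at 0.424, 0.485 and 0.332 with ethanol and 0.193, 0.218 and 0.226 in controls. In all, 6 of the 10 ratios did not overlap, those of Rhox8 or Rhox10 to each of Rhox5, Rhox11 and Rhox13. Rhox8 and Rhox10 were also the genes whose own CPM did not overlap, so these ratios largely restate that. The ratios were chosen after the values were seen, so their p-values are no independent support. The share of such ratios over other gene pairs was not computed. The log2 difference was 0.99 for Rhox8 to Rhox13, and the ratios with Rhox10 differed most, by -0.88 for Rhox5 to Rhox10, 1.12 for Rhox10 to Rhox11 and 1.16 for Rhox10 to Rhox13. Those with Rhox10 rest on its few counts and on its entry through the filter. The ratios of Rhox11 to Rhox13 (log2 difference 0.04), Rhox8 to Rhox10 (-0.17), Rhox5 to Rhox11 (0.24) and Rhox5 to Rhox13 (0.28) overlapped.

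**Figure D3:**
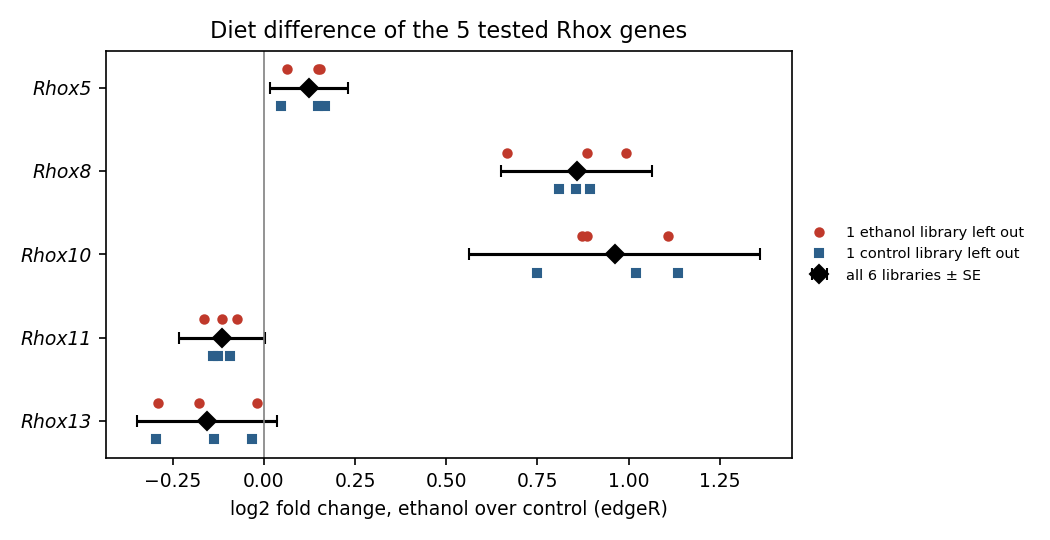
log2 fold change of ethanol over control (horizontal axis, edgeR) for the 5 tested Rhox genes, as diamonds with SE bars for all 6 libraries, circles with 1 ethanol library left out and squares with 1 control library left out. With a library left out Rhox8 ranges from 0.67 to 0.99 and Rhox10 from 0.75 to 1.14, while Rhox5 stays between 0.05 and 0.17.

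Sertoli cell markers mostly lay above the controls too, and the Rhox genes were set beside them. Of 20 Sertoli markers other than Rhox genes, 18 had a log2 fold change above 0, with a median of 0.22, and the ethanol libraries lay above all controls for 12. Over all tested genes 51.5% were above 0, with a median of 0.0065. Their summed level was 1722 to 1945 CPM with ethanol and 1496 to 1581 CPM in controls, of which clusterin, Clu, made up 36.5% to 38.2%. By p the first 3 were Cst9, a secreted cystatin, at 124.9 ± 8.29 CPM with ethanol and 100.2 ± 3.27 CPM in controls, Cst12, with a log2 fold change of 0.37, and transferrin, Trf, at 0.47. Their edgeR adjusted p-values were 0.145, 0.151 and 0.155. The markers below 0 were Amh and Fshr, with log2 fold changes of -1.09 and -0.09. Amh was low, at 0.269 ± 0.133 CPM with ethanol and 0.570 ± 0.249 CPM in controls, with overlap (edgeR unadjusted p = 0.0385). Because earlier results of these data were known when the list was written, its direction is not independent support.

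Relative to the summed Sertoli markers, Rhox8 again lay above all controls in the ethanol-fed testes. Per 1000 CPM of these markers, Rhox8 had 1.24, 1.69 and 0.952 CPM with ethanol and 0.771, 0.831 and 0.912 CPM in controls. Ethanol library 3 lay just above the highest control. The log2 difference was 0.59 (exact two-sided permutation test, p = 0.1, the smallest possible), against 0.86 without this scaling. For Rhox5 the same ratio was 6.55, 6.81 and 6.75 with ethanol and 7.39, 6.46 and 8 in controls, a log2 difference of -0.11 with overlap (exact permutation p = 0.4). Rhox10 had 0.251, 0.266 and 0.163 CPM with ethanol and 0.162, 0.146 and 0.0943 CPM in controls, so that ethanol library 3 barely exceeded control library 1. For Rhox10 the exact permutation p was 0.1 on CPM and 0.3 with TPM in place of CPM. Rhox10 passed the filter through its ethanol libraries, so neither p is support. The summed markers themselves were 0.24 higher with ethanol on the log2 scale, which moves every gene down by as much on this scale. Of all tested genes 1.5% lay above all controls on it and 39.3% below. Rhox11, whose CPM overlapped, lay below all controls on this scale, at 2.93, 3.48 and 2.87 with ethanol and 4, 3.81 and 4.04 in controls. Rhox13 overlapped, with a log2 difference of -0.40 (exact permutation p = 0.2). Whether the higher Sertoli marker level has a part in the values of Rhox8 was not tested beyond this ratio.

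**Figure D4:**
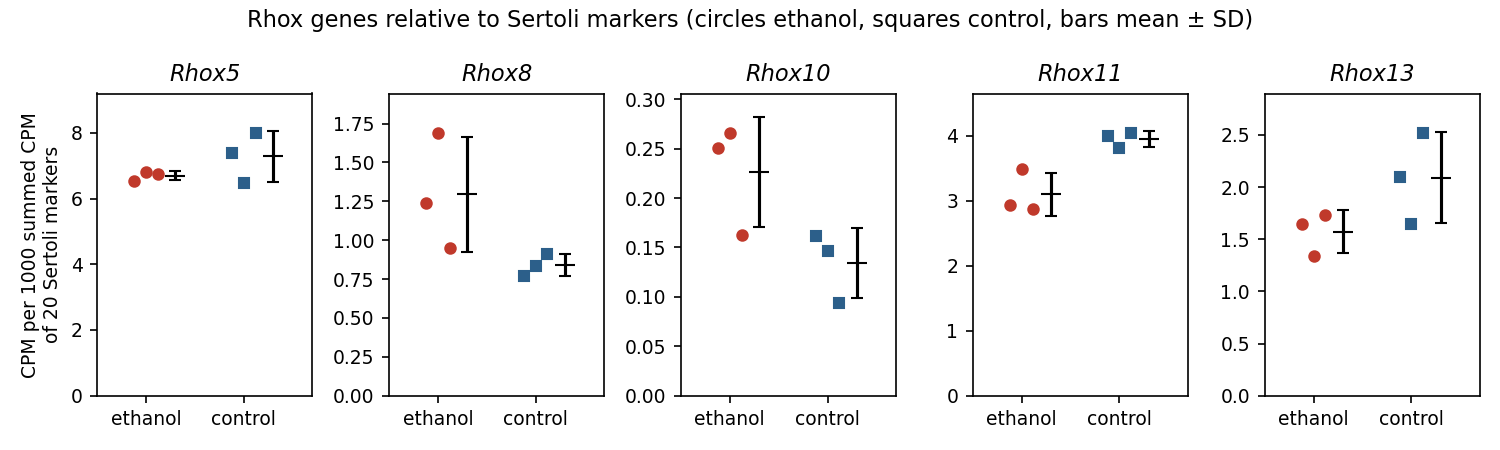
CPM of each tested Rhox gene per 1000 summed CPM of 20 Sertoli markers (vertical axes starting at 0) in each ethanol library (circles) and control library (squares), with mean ± SD over 3 libraries. Rhox8 lies above all controls, as 1.5% of tested genes do on this scale. Rhox10 lies barely above them and passed the filter through its ethanol libraries, so no share is set beside it. Rhox11 lies below all controls, as 39.3% of tested genes do, and Rhox5 and Rhox13 overlap.

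Rhox10 was measured near the limit of these libraries. It had 18, 20 and 13 counts with ethanol and 12, 10 and 6 counts in controls, or 0.453, 0.457 and 0.317 CPM with ethanol and 0.256, 0.225 and 0.141 CPM in controls. Each ethanol library was above each control, but the mean over the 6 libraries, 0.308 CPM, lay below 0.5 CPM. The log2 fold change was 0.96 (SE 0.40), where counting error alone would give a standard error of 0.339. It entered the test because 3 ethanol libraries and 1 control library reached the filter's level of 0.23 CPM. Passing in this way favours genes that are higher with ethanol, and no share of genes is drawn from it. DESeq2 gave it an unadjusted p of 0.109 and set no adjusted p. Markers of spermatogonia, the cells in which Rhox10 is known to act, summed to 293.4 to 311.6 CPM with ethanol and 298.9 to 312.7 CPM in controls, and of the 14 markers 11 were above 0 with a median log2 fold change of 0.13. The one with the smallest p was Id4, which marks spermatogonial stem cells, at 24.1 ± 2.77 CPM with ethanol and 32.2 ± 1.08 CPM in controls (edgeR adjusted p = 0.153).

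Rhox11 and Rhox13 stood slightly lower with ethanol, within the spread of the libraries. Rhox11 had 210, 262 and 229 counts with ethanol and 296, 261 and 257 in controls, or 5.29, 5.99 and 5.58 CPM with ethanol and 6.33, 5.88 and 6.04 CPM in controls. Only ethanol library 2 reached into the control range. The log2 fold change was -0.11 (SE 0.12, edgeR adjusted p = 0.725). Rhox13 had 118, 101 and 138 counts with ethanol and 155, 113 and 160 in controls, or 2.97, 2.31 and 3.36 CPM with ethanol and 3.31, 2.55 and 3.76 CPM in controls. Library 2 was the lowest of its diet in both diets. Its log2 fold change was -0.16 (SE 0.19, edgeR adjusted p = 0.774). Beside these genes, 9 of 10 spermatocyte markers were below 0 with a median of -0.13, and 10 of 10 round spermatid markers with a median of -0.10. Rec8, a meiotic cohesin, was the spermatocyte marker of smallest p, at 53.0 ± 5.03 CPM with ethanol and 69.4 ± 1.97 CPM in controls (edgeR adjusted p = 0.145).

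Rhox1 and Rhox12 were below 0.5 CPM and were not tested. Rhox1 had 10, 5 and 6 counts with ethanol and 6, 8 and 0 in controls, with 0.171 ± 0.072 CPM and 0.103 ± 0.093 CPM in these groups, which overlap. Rhox12 had 0 counts in each ethanol library and 2, 0 and 0 in controls. A count of 0 allows up to 3 counts, or 0.0686 to 0.0755 CPM in an ethanol library and 0.0641 to 0.0706 CPM in a control library, counting error alone considered. Rhox12 was therefore not detectable at this depth in 5 of 6 libraries, and no fold change is given for either gene.

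The other Rhox rows were also low. Of 29 such rows 8 were tested, 7 of them copies of Rhox3 and the other Rhox2a, and the highest mean was 1.30 CPM for Rhox3h. All 8 had log2 fold changes below 0, from -0.50 for Rhox3f to -0.05 for Rhox2a, and 0 had an unadjusted edgeR p under 0.05. The ethanol libraries lay below all controls for 2 of the 8, Rhox3a and Rhox3e, beside 9.01% of all tested genes. These copies are near-identical, so the counting could split or share reads among them, and they are not independent. Summed over the 8 rows of Rhox3, which was decided after the values were seen, the level was 5.39, 3.96 and 4.80 CPM with ethanol and 5.73, 5.77 and 5.97 CPM in controls, without overlap. The log2 difference of the sums was -0.32, which has no test because the sum was chosen for its rows' direction. The 8 rows of Rhox2 summed to 1.11 ± 0.059 CPM with ethanol and 0.945 ± 0.148 CPM in controls, and the 8 rows of Rhox4 to 0.226 ± 0.227 CPM with ethanol and 0.121 ± 0.040 CPM in controls. Rhox6 and Rhox9, known from the placenta, had counts in ethanol library 2 alone, 6 and 5.

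Known inputs and targets of the family were read in the same libraries. Of 8 Sertoli genes that depend on androgen, 7 were above 0 with a median of 0.17, beside 51.5% of all tested genes above 0. The first 3 by p were Tsx, with a log2 fold change of 0.29, the protease inhibitor gene Serpina5 at 0.17 and the tubulin gene Tubb3 at 0.21. Their edgeR adjusted p-values were 0.239, 0.327 and 0.382. Drd4 alone lay below 0, with a log2 fold change of -0.44 and overlap between the diets (edgeR adjusted p = 0.438). Among 12 regulators of the cluster, 6 were above 0 and 6 below, with a median of -0.0046. Dnmt3l, a cofactor of the germ cell DNA methyltransferases, was the first by p, at 6.51 ± 1.40 CPM with ethanol and 10.5 ± 0.44 CPM in controls, log2 fold change -0.70 with SE 0.14 (adjusted p = 0.145 by edgeR). Dnmt3a, a DNA methyltransferase, stood at 25.1 ± 2.03 CPM with ethanol and 20.6 ± 0.71 CPM in controls, and Gata4, a transcription factor of Sertoli and Leydig cells, at 16.3 ± 0.96 CPM with ethanol and 13.3 ± 1.46 CPM in controls. Unc5c, a netrin receptor gene that Rhox5 is known to repress, stood at 2.41 ± 0.35 CPM with ethanol and 2.01 ± 0.080 CPM in controls (edgeR adjusted p = 0.552). Ins2, which Rhox5 is known to induce in Sertoli cells, was too low to be tested. Zbtb16, a gene of undifferentiated spermatogonia, and Dmrt1, a gene of both Sertoli cells and spermatogonia that is also among the 20 Sertoli markers, had log2 fold changes of 0.13 and 0.10 with adjusted p-values of 0.830 and 0.723.

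Genes that flank the cluster on the X chromosome were mostly above 0 as well. Of 13 tested neighbours outside the family, 11 had log2 fold changes above 0, with a median of 0.15. An unadjusted edgeR p under 0.05 was found for 5 of them, or 38.5%, all higher. The share higher at that level was 15.3% of tested X-linked genes outside the family and 7.45% of all tested genes. Tmem255a, which lies beyond the Rhox13 end, was the first by p, at 29.7 ± 2.73 CPM with ethanol and 21.2 ± 1.26 CPM in controls, log2 fold change 0.49 with SE 0.09 (adjusted p = 0.127 by edgeR). Sept6, a septin gene, had a log2 fold change of 0.23 and Mcts1 one of 0.42. Over the whole X chromosome, 662 of 1018 tested genes outside the family, or 65.0%, were above 0, with a median of 0.081, against 51.5% and 0.0065 over all genes. The summed level of these X-linked genes was 16730 to 17420 CPM with ethanol and 15790 to 16320 CPM in controls. The part of this X-linked shift in the values of Rhox8 and Rhox10 was not tested.

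Markers of other tissues that could travel with testis, and of further cell types of the testis itself, were also read. Rhox5 is strongly expressed in the epididymis, and of 10 epididymis markers 8 were too low to be tested, at no more than 0.317 CPM in any library. Among these untested markers, Lcn9 and Crisp4 had counts in every ethanol library and in no control library. Crisp1 lay the other way without overlap. The tested markers, Rnase10 and Defb15, overlapped between the diets. The epididymis sum, most of it Rnase10, was 6.54 to 7.04 CPM with ethanol and 5.66 to 6.80 CPM in controls. Lcn5 was at 0 in each library. Adipose markers summed to 40.2 CPM in ethanol library 1, 18.2 and 16.7 CPM in ethanol libraries 2 and 3, and 10.8 to 18.5 CPM in controls. Without ethanol library 1 the log2 fold change of Rhox8 was 0.89 and that of Rhox10 was 0.89. For all 5 blood markers the ethanol libraries lay above all controls, summing to 56.6 to 69.1 CPM with ethanol and 28.4 to 44.4 CPM in controls, and their part in the Rhox values was not tested. Macrophage markers summed to 97.2 to 104.2 CPM with ethanol and 84.6 to 90.2 CPM in controls. Most of this sum was Mrc1, at 68.3 ± 3.61 CPM with ethanol and 55.4 ± 1.16 CPM in controls. Of the 6 macrophage markers 5 were above 0. C1qa lay the other way without overlap, at 6.04 ± 0.18 CPM with ethanol and 8.20 ± 0.82 CPM in controls. Peritubular markers summed to 128.9 to 138.2 CPM with ethanol and 118.7 to 122.2 CPM in controls. Endothelial markers summed to 40.3 to 49.7 CPM with ethanol and 38.8 to 43.8 CPM in controls. Elongating spermatid markers overlapped in their sum, with a median log2 fold change of 0.015.

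Leydig cells make the androgen on which Rhox5 and Rhox8 depend, and their 8 markers were split, with 3 above 0 and 5 below. The first by p was Cyp11a1, the enzyme of the first step of steroid synthesis, at 21.9, 33.1 and 15.5 CPM with ethanol and 64.8, 67.9 and 41.5 CPM in controls. The diets did not overlap, with a log2 fold change of -1.30 and SE 0.24 (adjusted p = 0.127 by edgeR). Hsd3b6, another enzyme of steroid synthesis, lay the other way, at 65.5 ± 15.2 CPM with ethanol and 44.7 ± 3.27 CPM in controls, without overlap (edgeR adjusted p = 0.157). Hsd17b3, which makes testosterone, stood at 12.1 ± 0.37 CPM with ethanol and 15.2 ± 0.43 CPM in controls, without overlap (edgeR adjusted p = 0.174). The sum over the 8 markers overlapped, at 553.6 to 696.9 CPM with ethanol and 646.8 to 678.2 CPM in controls. The part of these genes in the values of Rhox5 and Rhox8 was not tested.

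Among 19529 other genes averaging 1 CPM or more, those whose values over the 6 libraries followed a Rhox gene most closely were named by the smallest root mean square difference in log2 CPM after each gene was centred on its own mean. With so many genes and 6 libraries some close matches arise in any data. For Rhox8 they included Prickle4 and Pdlim2, with differences of 0.105 and 0.110. Pdlim2 had 4.91, 5.51 and 4.39 CPM with ethanol and 2.84, 2.80 and 2.78 CPM in controls. As in Rhox8, ethanol library 2 was the highest, a likeness for which the gene was picked. For Rhox5 the closest were the integrin gene Itga7, the X-linked gene Gm15085 and the noncoding RNA LOC115486499, with differences of 0.0254 to 0.0282. For Rhox11 they were Terb1, a gene of meiotic telomere attachment, Spdya and Ttc30a2, at 0.0181 to 0.0191, and for Rhox13 they were Coa4, Fibcd1 and Fance, at 0.0397 to 0.0701.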

How the data were processed

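RNA-seq values of 6 testis libraries were analysed, 3 per diet, grouped and numbered as in the labels. Per the labels' protocols, ribosomal RNA was removed and a strand-preserving library kit was used. The submitters' processing notes name HISAT2 and the mm10 build. No source used here names the counting tool or its strand setting. The table held read counts per gene, deposited without normalization, and FPKM and TPM computed by the authors, per the file headers. It had 0 other sample columns.

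The 7 genes and the gene lists were chosen with earlier results of these data known. Counts were tested with edgeR 4.0.16 in R 4.3.3: filterByExpr (25073 of 45777 genes kept), TMM, quasi-likelihood F-test without covariates, Benjamini-Hochberg adjustment over all genes tested, threshold 0.05. Each standard error was the fold change divided by the root of its F value. For single values an exact permutation test, two-sided, was used. The procedure was tested on simulated data. In 15 library pairs the chi-square per gene was at least 7.66, so no library was a duplicate. Named genes were the 7, other Rhox rows past the filter, the first 3 genes at most by p in each list, and for members of at least 1 CPM the 3 most similar profiles. Chosen after values were seen were the Rhox3, Rhox2 and Rhox4 sums and the ratios between Rhox genes. So were, as names, Ins2, Lcn5, Lcn9, Crisp1, Crisp4, Clu, Amh, Fshr, Drd4, Rhox6 and Rhox9. Marker lists held 4 to 20 genes, and were described by counts, medians and sums with no list test. Some genes that these rules would name are not reported here. Alternatives were other scalings, filters, DESeq2 1.42.0, limma 3.58.1 on counts, TPM or FPKM, the replicate number as a block, and each library left out.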

Additional observations from a re-analysis of the deposited data

How the results depend on the processing

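None of the 5 tested genes passed an adjusted p of 0.05 under any of the 17 alternatives in which it had one. Each kept its direction, but the CPM of Rhox8 and Rhox10 did not overlap, so leaving a library out could hardly reverse them. Rhox10 also passed the main filter through its ethanol libraries. Rhox10 had no adjusted p with DESeq2 and was removed by the filter of 1 CPM in 3 libraries, and Rhox1 and Rhox12 were not followed. For Rhox8 the log2 fold change lay between 0.49 on log2(FPKM + 1), where the pseudocount shrinks low genes, and 0.99, and adjusted p-values between 0.0656 with DESeq2 and 0.441 without control library 1. For Rhox10 the range was 0.25 to 1.14 (adjusted p 0.281 to 0.621), for Rhox5 0.05 to 0.18, for Rhox11 -0.16 to -0.05 and for Rhox13 -0.30 to -0.02. Over the whole table the count of genes called, 0 by edgeR, was 2 with upper-quartile factors, 2 with the filter of 1 CPM in 3 libraries, 5 with limma-voom, 330 with DESeq2 and 0 to 3 with a library left out. The cause of the larger DESeq2 count was not tested. On TPM, a comparison chosen after seeing the data, the ethanol libraries lay above all controls for 2943 genes and below them for 1105, against 2447 and 2260 on CPM. The ratio of Rhox8 to the summed Sertoli markers gave log2 differences of 0.38 to 0.79 with a library left out and 0.56 to 0.68 otherwise. The diets did not overlap on this ratio, so leaving a library out could not reverse its direction. Scaling factors of a library cancel in the ratio, so changing them is no check of it.

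With the replicate number as a block edgeR called 15 genes and gave Rhox8 0.84 (adjusted p = 0.151). Deviations of same-numbered libraries correlated at -0.135 to 0.309 across genes, and those of differently numbered libraries at -0.346 to 0.357. No pairing by number was seen, but so few libraries cannot exclude it. Depth limits Rhox1, Rhox10 and Rhox12, whose 6 libraries held at most 20 counts each.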
